A study of Mus musculus with 9 samples.

Results

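Whole lung from mice given silica was compared with lung from mice given saline only. Both groups were C57BL/6J males aged 6 to 8 weeks, 20 to a group by the design. They received saline (Control) or saline with 5 mg of silica (Silica) by instillation into the trachea, and lungs were taken on day 28. The comparison uses 3 Control and 3 Silica libraries of the 9 in the study. The other 3 libraries, from mice that also received atractylenolide III (ATL-III) at 30 mg/kg per day into the peritoneum, enter the level filter and the estimate of spread, not the comparison. Genes were kept where FPKM (fragment counts scaled for exon length and library total, a level per length) was at least 1 in at least 3 of the 9 libraries, which left 15459 of 55359 genes. Of these, 58 passed only through Control, 30 only through Silica and 81 only through the ATL-III libraries. Nothing in the labels ties a library to 1 animal. The p-values therefore reflect how far these samples vary, and part of that variation may be technical.

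Silica is a crystalline dust that alveolar macrophages engulf and cannot digest. Particles damage the lysosome, the acid compartment in which cells break down what they take up, and this can start interleukin-1 release through the inflammasome. Monocytes are drawn in by chemokines and mature into further macrophages, and in silicosis the dust-laden cells sit in nodules that later become collagenous scar. In whole tissue, more or fewer cells of a type and more or less RNA per cell cannot be told apart.

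The 6 libraries held 16047175 to 17792481 counts each. The lung markers Sftpc of alveolar type 2 cells, Scgb1a1 of airway secretory cells, Ager of alveolar type 1 cells, Foxj1 of ciliated cells and Pecam1 of endothelium were present in all 6 libraries. Correlations of log2 values ran from 0.988 to 0.992 between Control libraries, from 0.982 to 0.99 between Silica libraries and from 0.956 to 0.982 between the groups. The Silica libraries did not respond alike. Over the genes called higher, the median difference from the Control mean was 0.69 on the log2 scale in Silica 1, 0.36 in Silica 2 and 0.52 in Silica 3, and over the genes called lower it was -0.83, -0.44 and -0.58. Mitochondrial transcripts took 5.18% to 6.85% of counts, with the highest share in Silica 2. Below, values for single libraries are FPKM in the order replicate 1, 2 and 3, means carry an SD (n = 3), and changes are log2 fold changes, Silica over Control, with a standard error. Tests are edgeR's quasi-likelihood tests, with p-values adjusted by the Benjamini-Hochberg method over all genes tested.

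EdgeR called 2615 genes (16.9% of those tested), 1408 higher (9.11%) and 1207 lower (7.81%) after silica. Increases were larger than decreases. At least 2-fold changes numbered 365 higher and 148 lower, and at least 4-fold changes numbered 107 higher and 9 lower. Of the 2 genes that fell at least 8-fold, Gm26413 and Mir3097, both small RNA genes named after their values were seen, neither had a count in Silica and neither had over 14 counts in Control. The call held with each of the 6 libraries left out in turn for 449 genes higher (2.9%) and 235 lower (1.52%). These genes are said below to keep their call. FPKM ranges of the groups did not overlap for 2219 genes higher (14.4%) and 4464 lower (28.9%), and these FPKM were not multiplied by TMM factors. With library totals in place of TMM factors the median over all genes moved from -0.013 to -0.112, and 994 of 3015 calls were higher, 33% where the main test gave 53.8%.

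Single libraries moved the number of calls. It was 1179, 1147 and 862 without Control 1, 2 and 3, and 865, 3944 and 1202 without Silica 1, 2 and 3. Of 271 genes that rose at least 2-fold and kept their call, Silica 1 was the highest Silica library for 203 and Silica 2 the lowest for 228.

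**Figure D1:**
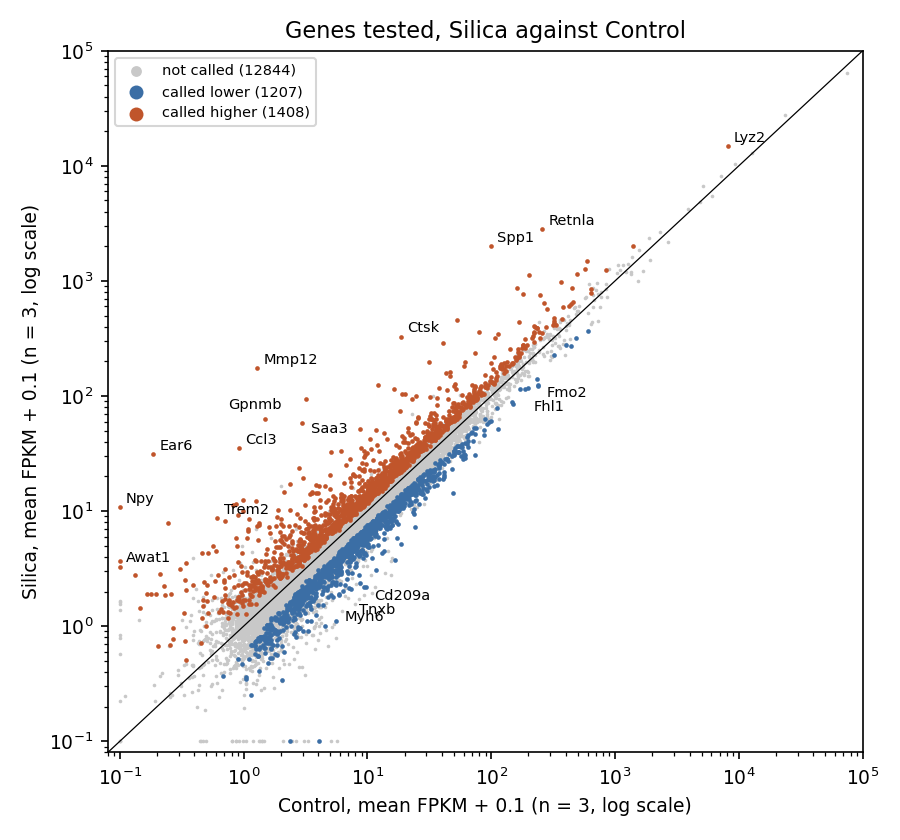
Mean FPKM + 0.1 of each tested gene in Control (x axis) and Silica (y axis), both on log scales, n = 3 libraries each. Orange points are the 1408 genes called higher, blue points the 1207 called lower, and the line marks equal values. Mmp12, Spp1 and Retnla lie far above the line, while the called decreases lie closer to it.

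Several of the largest increases were in genes at or near 0 in Control lung. Such a gene can pass the level filter only through libraries of mice given silica, so its place among the increases follows in part from the filter. Every gene below 1 FPKM in all Control libraries shares this limit, also where it is counted in a list below. Examples are Trem2, Inhba, Tnf, Tnfrsf9, Cd177, Cxcl1, Cxcl2, Ccl7, Ccl20, Ptgir, Hpgds, Slc7a11 and Gdf15. Npy, which encodes neuropeptide Y, was listed at 0 in every Control library and at 20.8, 2.52 and 8.94 FPKM in Silica, and with 3 counts over the Control group as its upper limit it was at least 107-fold higher. Awat1, a wax ester synthase of the skin's oil glands, was also at 0 in Control and stood at 3.35, 1.16 and 5.09 FPKM in Silica, at least 78.2-fold higher with the same limit. Both genes varied widely among the Silica libraries, and Silica 2 was the lowest for each. Cd200r2, a relative of the receptor that restrains myeloid cells, had 3 counts over the Control libraries and 244 over the Silica libraries, where it stood at 3.42, 2.04 and 2.57 FPKM. Ear6, an eosinophil-associated ribonuclease, had 0.06, 0.13 and 0.07 FPKM in Control and 31.7, 27.9 and 33.8 in Silica (8.45 ± 0.46, edgeR adjusted p = 7.3e-06). The 3 Silica libraries thus lay close together. Ear6, Ly6i and Saa3 belong to families of similar copies, between which the counting could split reads.

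Mmp12, the macrophage elastase, was at 1.03, 1.25 and 1.28 FPKM in Control and at 282, 63.7 and 178 in Silica (7.32 ± 0.6, edgeR adjusted p = 6.7e-05). Gpnmb, a glycoprotein of lipid-laden macrophages, went from 1.57, 1.03 and 1.59 to 100.2, 24.9 and 63.8 FPKM (5.61 ± 0.48). Spp1, osteopontin, was already at 98.7, 105 and 93 FPKM in Control and reached 3983, 646 and 1412 (4.47 ± 0.58). In all 3 genes the groups were far apart, and the order of the libraries was the same, Silica 1 highest and Silica 2 lowest. Ccl3, a chemokine for monocytes and lymphocytes, differed in this: it stood at 0.24, 1.63 and 0.56 FPKM in Control and at 39.5, 34.5 and 31.7 in Silica (5.54 ± 0.44). Ly6i, a surface protein of the Ly6 family, was lowest in Silica 1, with 2.9, 2.59 and 3.74 FPKM in Control and 44.1, 137 and 102 in Silica (5.02 ± 0.77). Saa3, an acute phase protein made in inflamed tissue, went from 1.1, 1 and 6.54 to 84.2, 45 and 46.1 FPKM (4.45 ± 0.61), with Control 3 above the other Control libraries.

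**Figure D2:**
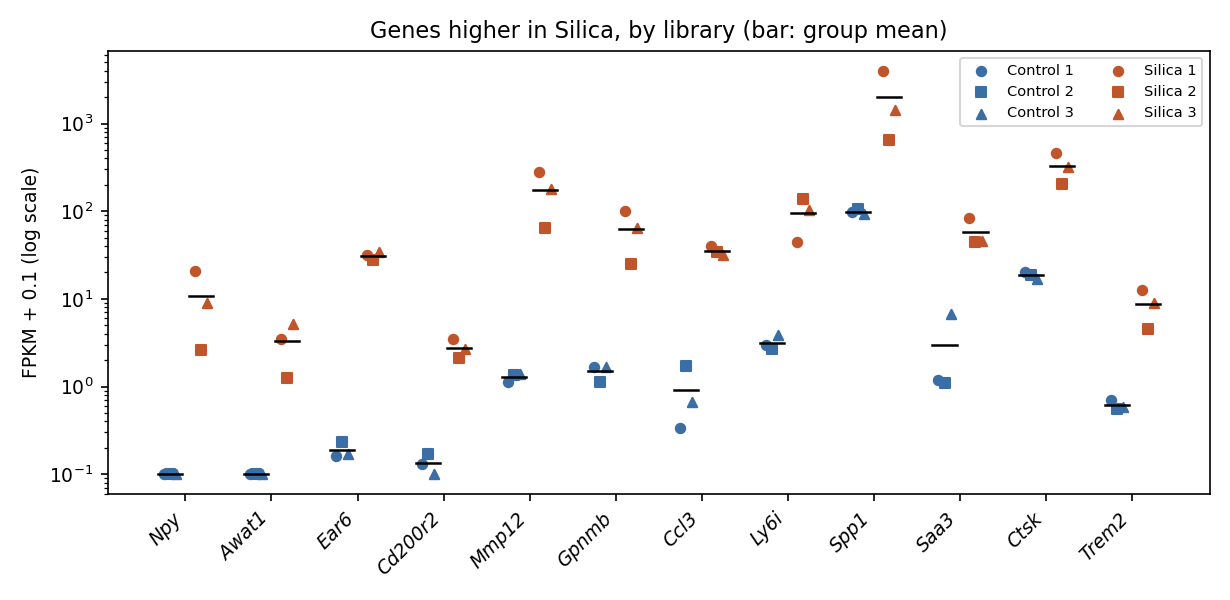
FPKM + 0.1 (log scale) of 12 genes that rose after silica, with 1 point per library (marker shape gives the replicate) and a bar at each group mean. All Silica points lie above all Control points, a condition of choice for the genes picked by fold change. Silica 2 is the lowest for Mmp12, Gpnmb, Spp1 and Npy, and Silica 1 for Ly6i.

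The 10 genes that gained most in mean FPKM among those that kept their call were Lyz2, Retnla, Fth1, Ftl1, Ccl6, Chil1, Ctsd, Ctss, Spp1 and Rn18s. Lyz2, lysozyme of macrophages and alveolar type 2 cells, had 9170, 7104 and 8052 FPKM in Control and 14981, 14077 and 15485 in Silica (0.97 ± 0.18). Retnla, a secreted protein of alternatively activated macrophages, had 260, 270 and 246 FPKM in Control and 4012, 1084 and 3353 in Silica (3.56 ± 0.4). Fth1 and Ftl1, the heavy and light chains of the iron store ferritin, went from 493 ± 54.7 to 1153 ± 438 FPKM and from 363 ± 23.3 to 987 ± 420 FPKM. None of these 4 genes had overlapping groups, and 14.4% of all genes tested had no overlap on the higher side. Ccl6, a chemokine of myeloid cells, rose from 200 ± 25.3 to 1129 ± 291 FPKM (2.61 ± 0.22), and Chil1, a chitinase-like protein without enzyme activity, from 249 ± 51.9 to 754 ± 145 (1.7 ± 0.24). The cathepsins Ctsd and Ctss, proteases of the lysosome, completed the set with Spp1. Rn18s, the 18S ribosomal RNA, met the same rule at 513, 634 and 624 FPKM in Control and 2173, 1129 and 1145 in Silica. Poly(A) selection should leave little of this RNA, so its level is also a sign of library quality, and it was highest in Silica 1, where most increases were largest. Its part in them was not tested.

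Macrophage genes of the kind found in fibrotic lung had the highest share of calls among the lists with at least 5 called members. Of 27 tested members of the fibrosis-associated macrophage list, 23 rose and none fell, with a median log2 fold change of 1.58 beside -0.013 over all genes. The count was 19 to 24 with 1 library left out, and 19 members kept their call. The per-library median was 1.91 in Silica 1, 0.79 in Silica 2 and 1.6 in Silica 3. Trem2, a lipid-sensing receptor of macrophages, went from 0.6, 0.45 and 0.49 to 12.5, 4.46 and 8.77 FPKM (4.17 ± 0.4). Fabp5, a fatty acid carrier, went from 24.4, 20.3 and 23.6 to 112, 72.7 and 96.2 FPKM (2.15 ± 0.21). Itgax, the CD11c integrin chain of alveolar macrophages and dendritic cells, went from 8.19, 8.74 and 8.45 to 25.9, 15.3 and 29.4 FPKM (1.58 ± 0.21). Silica 2 was the lowest Silica library for all 3, and still above every Control library.

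Genes known from osteoclasts, the bone-resorbing relatives of macrophages, rose as well. The call was made for 8 of 13 tested members (median 0.53, 5 to 8 with 1 library left out), and none fell. Ctsk, the collagen-degrading cathepsin K, went from 20.3, 18.4 and 16.9 to 459, 203 and 322 FPKM (4.26 ± 0.29, edgeR adjusted p = 2.7e-05). Acp5, tartrate-resistant acid phosphatase, went from 6.78, 7.12 and 7.36 to 37.2, 15.8 and 32.6 FPKM (2.12 ± 0.27). Atp6v0d2, a proton pump subunit of osteoclasts and alveolar macrophages, went from 21.9, 20 and 18.8 to 124, 69.6 and 115 FPKM (2.45 ± 0.2). Mitf, a transcription factor of the osteoclast line, rose by 0.76 ± 0.15, and its relative Tfec by 1.56 ± 0.17. Other members did not pass: Mmp9, a gelatinase, had 1.48, 6.32 and 1.85 FPKM in Control and 2.42, 3.18 and 1.57 in Silica, and Oscar, Dcstamp and Ocstamp, of which the last 2 mediate cell fusion, were below the level filter.

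Of 21 alveolar macrophage genes, 13 rose and none fell (median 0.75, 9 to 13 with 1 library left out). Slc39a2, a zinc transporter, had 1.41, 1.01 and 1.24 FPKM in Control and 7.47, 6.69 and 8.33 in Silica (2.72 ± 0.18), and Marco, a scavenger receptor for dust, 5.66, 2.23 and 7.12 against 25.8, 29.9 and 42 (2.8 ± 0.32). In contrast to these, Siglecf, Fabp1 and Car4 of the same list did not pass: Siglecf had 5.48, 6.16 and 4.31 FPKM in Control and 6.45, 6.4 and 8.74 in Silica, Fabp1 a mean of 26.1 ± 5.02 against 16.1 ± 3.9, and Car4 47 ± 2.6 against 44.2 ± 7.64. Among 18 interstitial and perivascular macrophage genes, 7 rose and 2 fell (median 0.02). The 7 became 3 without any one Control library, 2 without Silica 1 or Silica 3 and 7 without Silica 2. C1qa, a chain of complement C1q made by macrophages, went from 29, 25.8 and 32.8 to 68.2, 44.9 and 60.4 FPKM (1.09 ± 0.2). Cd163, the receptor for haemoglobin bound to haptoglobin, fell from 3, 3.12 and 3.81 to 1.04, 1.49 and 1.69 FPKM (-1.14 ± 0.19), and Stab1, a scavenger receptor of perivascular cells, fell by 0.55 on the log2 scale, a call lost without Control 2, Control 3 or Silica 1. Lyve1 and Folr2, defining markers of the perivascular type, did not pass, at 80.9 ± 6.11 against 54 ± 3.17 FPKM and 1.32 ± 0.524 against 1.03 ± 0.41.

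Genes of alternative activation, the program that interleukin-4 drives, gave 7 of 16 higher and 1 lower (median 0.84). Ch25h, which makes 25-hydroxycholesterol, was even across libraries, at 4.21, 3.73 and 3.96 FPKM in Control and 16.2, 15.2 and 18.2 in Silica (2.16 ± 0.15). Mrc1, the mannose receptor, rose from 18.5 ± 0.411 to 32.2 ± 4.06 FPKM (0.9 ± 0.12), and Egr2, a transcription factor of these cells, from 1.41 ± 0.182 to 4.13 ± 1.21 (1.66 ± 0.23). Arg1, arginase 1, did not pass, with 0.57, 0.9 and 1.08 FPKM in Control and 2.48, 1.15 and 1.31 in Silica. Mgl2, a lectin of the same program, fell (-0.58 ± 0.15) but was called with only 1 of the 6 libraries left out. Scavenger and efferocytosis receptors, which bind particles and dying cells, gave 10 of 22 higher and 1 lower (median 0.39, 7 to 11 higher with 1 library left out). Olr1, a receptor for oxidised lipoprotein, went from 3.94, 4.22 and 3.54 to 13.3, 11.8 and 17.8 FPKM (1.97 ± 0.16). Clec7a, the beta-glucan receptor dectin-1, went from 29.3, 40.6 and 23.8 to 254, 147 and 195 FPKM (2.78 ± 0.33). Msr1, scavenger receptor A, went from 0.68, 0.9 and 1.97 to 11.7, 4.15 and 6.08 FPKM (2.74 ± 0.44).

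Many lipid genes rose. Of 34 genes for lipid droplets and cholesterol handling, 19 rose and 2 fell (median 0.44). The higher count was 10, 10 and 11 without Control 2, Control 3 and Silica 1. Plin2, the coat protein of lipid droplets, went from 36.4, 31.6 and 28.2 to 121, 55.3 and 116 FPKM (1.71 ± 0.28). Lpl, lipoprotein lipase, went from 38.9, 35.8 and 39.6 to 163, 73 and 117 FPKM (1.74 ± 0.24). Lipa, which frees cholesterol in the lysosome, went from 6.65, 5.54 and 6.94 to 22.4, 12.3 and 18 FPKM (1.57 ± 0.19). Each again ranked Silica 1, Silica 3, Silica 2. The exporter Abcg1 and the esterifying enzyme Soat1 rose by 0.75 ± 0.14 and 0.55 ± 0.11. Abca1, the other main cholesterol exporter, had 17.5 ± 2.24 FPKM in Control and 17.5 ± 3.14 in Silica, and Apoe 90.9 ± 17.4 and 103 ± 33.7, and neither passed. Cyp27a1, which makes 27-hydroxycholesterol, fell from 13.9, 16.8 and 13.8 to 6.27, 8.21 and 7.04 FPKM (-0.95 ± 0.14).

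Cholesterol and fatty acid synthesis gave 16 of 29 genes higher and 1 lower (median 0.47). The higher count was 8, 8 and 9 without Control 2, Control 3 and Silica 1, and 10 by limma on FPKM. Dhcr7, the last enzyme of the cholesterol pathway, rose from 0.793 ± 0.123 to 2.19 ± 0.746 FPKM (1.57 ± 0.27). Cyp51, which demethylates lanosterol, rose from 13.3 ± 0.41 to 25.7 ± 3.97 FPKM (1.05 ± 0.14) and Mvd, of the mevalonate branch, from 4.41 ± 0.392 to 9.14 ± 1.41 (1.15 ± 0.16). Scd1, a desaturase abundant in alveolar type 2 cells, went from 276, 276 and 287 to 779, 391 and 540 FPKM (1.14 ± 0.23). Hmgcs1, of an early step, was even, at 22.4, 19.4 and 19.6 in Control and 27.1, 29.3 and 27.8 FPKM in Silica (0.56 ± 0.1).

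The lysosome was covered by 4 lists, and no gene of any of them fell. The list of cathepsins, which also holds legumain and 2 cystatin inhibitors, gave 11 of 15 tested members higher (median 1.11, 10 to 11 with 1 library left out), and the proton pump, which acidifies the lysosome, 14 of 20 (median 0.64, 10 to 16). Hydrolases, the enzymes that digest lipids, sugars and proteins, gave 19 of 32 (median 0.6), with 11 without Control 3 or Silica 1. Membrane proteins and regulators of the TFE family gave 14 of 26 (median 0.52, 10 to 16). Ctsd, cathepsin D, went from 170, 158 and 157 to 1331, 446 and 832 FPKM (2.54 ± 0.32). Ctss, the protease that trims the MHC class II chaperone, went from 186, 189 and 168 to 1028, 421 and 852 FPKM (2.2 ± 0.28). Gla, alpha-galactosidase, went from 3.58, 3.53 and 3.23 to 20.4, 8.71 and 14.3 FPKM (2.18 ± 0.28). The increase was largest in Silica 1 for each of the 3. Cstb, an inhibitor counted in the cathepsin list, rose from 114 ± 12.9 to 347 ± 78.7 FPKM (1.71 ± 0.19), as did Psap, the precursor of the saposins that help lipid digestion, from 107 ± 1.79 to 316 ± 120 (1.68 ± 0.25). Mcoln3, a cation channel of endosomes and lysosomes, went from 4.37, 4.17 and 4.73 to 18.3, 11.3 and 19.5 FPKM (1.99 ± 0.2). Fnip2, a partner of folliculin in nutrient sensing at the lysosome, rose by 1.05 ± 0.14. The regulators Tfeb and Tfe3 did not pass, at 2.05 ± 0.434 against 2.29 ± 0.365 FPKM and 3.15 ± 0.34 against 2.82 ± 0.2, whereas Mitf and Tfec of the same family rose.

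TFE family proteins bind the E-box CACGTG near the starts of lysosome genes, and these letters were searched in the 250 bases before the RefSeq start (GRCm38.p6) of the 10735 tested genes with a promoter sequence. The motif reads the same on both strands. It was found in 8.17% of all these promoters, in 17 of 75 (22.7%) of the lysosome lists and in 9 of 44 (20.5%) of lysosome genes called higher. The share was therefore no larger among lysosome genes that rose than among the lists as a whole. Ctsd and Gla each held 2 copies. A pair of genes of lysosomal nutrient sensing with 1 copy each, Rragc and Lamtor1, is printed to show the motif in its setting, with the E-box in capitals. Rragc (chr4:123917281-123917366, plus strand) encodes a Rag GTPase, and its level went from 18.8, 17.3 and 17.9 to 28.9, 23 and 25.7 FPKM. Lamtor1 (chr7:101905729-101905814, plus strand) encodes the anchor of the Ragulator complex, and its level went from 11.7, 13 and 11.8 to 25.7, 15.3 and 19.7 FPKM.
Rragc: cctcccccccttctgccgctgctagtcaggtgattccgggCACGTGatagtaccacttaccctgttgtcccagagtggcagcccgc
Lamtor1: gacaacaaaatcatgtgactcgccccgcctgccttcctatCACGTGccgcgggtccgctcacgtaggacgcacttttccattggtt
A match is a string of letters and not a shown binding site.

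Chemokines of the CC family gave 12 of 24 genes higher and 2 lower (median 0.88, 10 to 12 higher with 1 library left out). Neither lower call held without Silica 1 or any one Control library. Ccl2 and Ccl7, the main attractants of monocytes through the receptor CCR2, had 1.07, 0.93 and 1.03 FPKM and 0.84, 0.93 and 0.92 in Control. In Silica they had 13.2, 6.79 and 5.33 (3.17 ± 0.42) and 16.5, 7.57 and 5.89 (3.58 ± 0.5), with Silica 1 well above the other libraries. The monocyte list itself gave 3 of 18 genes higher and 1 lower (median 0.6), beside 9.11% higher over all genes. The higher count was 0 to 2 with 1 library left out, and no member kept its call. The list's summed FPKM overlapped between the groups, at 215 to 263 in Control and 217 to 322 in Silica. Ccl9, a chemokine of myeloid cells, went from 10.6, 13.5 and 12.3 to 160, 84.5 and 130.2 FPKM (3.48 ± 0.26). Ccl20, which attracts cells through CCR6, went from 0.51, 0.79 and 0.48 to 2.43, 2.05 and 2.85 FPKM (2.13 ± 0.38). Ccl22 and Ccl17, ligands of CCR4 on T cells, rose to 5.86 ± 0.702 from 2.23 ± 0.31 and to 42.6 ± 6.88 from 24.9 ± 3.85 FPKM. CXC chemokines gave 7 of 19 higher and none lower (median 0.33), 4 of them without Silica 1. Cxcl1, Cxcl2 and Cxcl5, which attract neutrophils, rose by 2.7 ± 0.42, 3.95 ± 0.62 and 3.48 ± 0.56 from means of at most 0.463 FPKM in Control to 2.34 ± 0.765, 3.45 ± 1.36 and 4.91 ± 1.99. Cxcr1, a receptor for such chemokines, went from 0.65, 1.3 and 0.37 to 9.44, 9.09 and 16.1 FPKM (3.99 ± 0.36). Cxcr2, the main chemokine receptor of mouse neutrophils, did not pass, at 4.25, 20 and 3.54 against 5.96, 12.4 and 4.22 FPKM. Cxcl9 and Cxcl10, which interferon-gamma induces, were below the level filter, and Cxcl13, which attracts B cells, had 5.98, 3.85 and 37.5 FPKM in Control and 10.4, 8.02 and 5.33 in Silica and did not pass.

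Neutrophil transcripts varied from library to library in both groups. The summed FPKM of the neutrophil list, members below the level filter included, was 660, 4017 and 626 in Control and 2206, 4908 and 1105 in Silica. S100a8, the calprotectin subunit that fills neutrophils, had 209, 1458 and 184 FPKM in Control and 783, 1764 and 267 in Silica (0.7 ± 0.75, edgeR adjusted p = 0.54). The groups overlapped, and Control 2 and Silica 2 were high for these genes. Il1b had the same order of libraries within each group but was highest in Control 2, at 10.7, 86.1 and 9.29 against 29.9, 55.9 and 19.6 FPKM (0.09 ± 0.67). The share of neutrophils in its level was not tested. Of the neutrophil list, 5 of 21 rose (2 without Control 1, 3 without Silica 1 or Silica 3 and 3 in a fit of the 6 libraries alone), and none fell. Cd177, a neutrophil surface protein, went from 0.45, 0.72 and 0.65 to 9.21, 4.42 and 10.6 FPKM (3.84 ± 0.38), so that it was lowest in Silica 2, where S100a8 was highest.

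The interleukin-1 family and inflammasome gave 9 of 23 genes higher and none lower (median 0.32, 6 to 10 with 1 library left out). Il1a, interleukin-1 alpha, was even, at 1.67, 1.58 and 2.5 FPKM in Control and 8.85, 8.2 and 8.26 in Silica (2.24 ± 0.21). Il1rn, the receptor antagonist that blocks interleukin-1, went from 2.77, 3.9 and 2.13 to 25.5, 12.9 and 19.9 FPKM (2.84 ± 0.28). Casp1, the caspase that cleaves interleukin-1 beta, rose from 6.15, 6.14 and 5.71 to 11.2, 9.86 and 9.44 FPKM (0.86 ± 0.18), and the sensors Naip2 and Aim2 rose by 1.29 ± 0.16 and 0.97 ± 0.16. Nlrp3, the sensor known from crystal-treated macrophages, did not pass, at 0.68, 2.44 and 0.79 FPKM against 0.79, 1.17 and 0.62. In the TNF superfamily 5 of 23 rose (median 0.43), 3 without Control 3. Tnf had 0.59, 0.23 and 0.41 FPKM in Control and 2.63, 1.85 and 1.99 in Silica (2.47 ± 0.48), and Tnfrsf9, the costimulatory receptor 4-1BB, 0.49, 0.27 and 0.32 against 4.35, 3.71 and 4.54 (3.63 ± 0.44). Csf2rb2, a beta chain of interleukin-3 receptors, rose from 1.87 ± 0.5 to 6.42 ± 1.12 FPKM (1.88 ± 0.2).

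Calls in other cytokine programs were few in number, and over all genes 9.11% were called higher and 7.81% lower. Among 31 interferon-induced genes 1 rose, Oas1a, a sensor of double-stranded RNA, from 2.87, 2.71 and 2.49 to 8.57, 7.76 and 5.22 FPKM (1.52 ± 0.32), and none fell (median 0.22). The count was 9 in a fit of the 6 libraries alone and 9 with no FPKM filter. Ifit3, a typical interferon target, had 59.2, 45.3 and 46.6 FPKM in Control and 54.6, 59.7 and 56.1 in Silica. Of 9 tested genes of the type 2 and type 17 cytokine axis none rose and 1 fell, the interleukin-17 receptor chain Il17rc (-0.58 ± 0.13). With Silica 2 left out, 2 rose and 2 fell, and the call of Il17rc was lost without Control 2, Control 3, Silica 1 or Silica 3. Il33, an alarm cytokine of alveolar cells, did not pass, at 50 ± 12.6 against 63.8 ± 14.7 FPKM.

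Acute phase proteins gave 10 of 17 genes higher and none lower (median 0.92), with 6 without Control 1. Lcn2, lipocalin 2, which withholds iron from bacteria, went from 49.7, 28.6 and 43.6 to 218, 318 and 333 FPKM (2.93 ± 0.28). Itih4, a plasma protease inhibitor family member, went from 9.19, 8 and 8.75 to 75.1, 28.1 and 50.2 FPKM (2.68 ± 0.35). Steap4, a metalloreductase, rose by 1.73 ± 0.16 and Orm1, a plasma glycoprotein with a near-identical copy in Orm2, by 2.97 ± 0.45. Fc, lectin and Toll-like receptors gave 15 of 30 higher and 2 lower (median 0.79, 11 to 16 higher with 1 library left out). Tlr7, which senses single-stranded RNA, was even, at 3.85, 3.68 and 3.4 FPKM against 10.2, 9.46 and 9.87 (1.53 ± 0.11). Clec5a and Clec4n, activating lectins of myeloid cells, rose by 3.02 ± 0.37 and 2.95 ± 0.36, and Fcgr3, a receptor for antibody complexes, by 1.45 ± 0.16. Tlr5, the flagellin receptor, fell from 2.24 ± 0.19 to 1.33 ± 0.276 FPKM, a call that held with only 1 of the 6 libraries left out.

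Of 36 complement and coagulation genes 11 rose and 1 fell (median 0.12, 8 to 12 higher with 1 library left out). Itgb2, the shared chain of the leukocyte integrins, went from 12.7, 15.2 and 12.5 to 59.4, 34.4 and 49.7 FPKM (1.94 ± 0.18). F7 and F10, coagulation factors that act in sequence, rose by 1.23 ± 0.13 and 1.51 ± 0.17, to 22.5 ± 2.06 and 6.05 ± 0.866 FPKM. Plau, urokinase, which activates plasminogen, went from 1.88, 1.9 and 1.56 to 14.2, 6.08 and 10.5 FPKM (2.63 ± 0.34). Eicosanoid enzymes and receptors gave 9 of 24 higher and 2 lower (median 0.15), with 5 higher without Control 3 and 4 without Silica 1. Ptgir, the prostacyclin receptor, went from 0.82, 0.86 and 0.65 to 6.02, 3.41 and 5.18 FPKM (2.75 ± 0.24), and Hpgds, a prostaglandin D synthase, from 0.607 ± 0.0929 to 1.76 ± 0.147 (1.64 ± 0.3). Ptgfr, the receptor for prostaglandin F, fell from 4.38, 5.48 and 5.1 to 2.41, 2.65 and 2.69 FPKM (-0.85 ± 0.13).

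**Figure D3:**
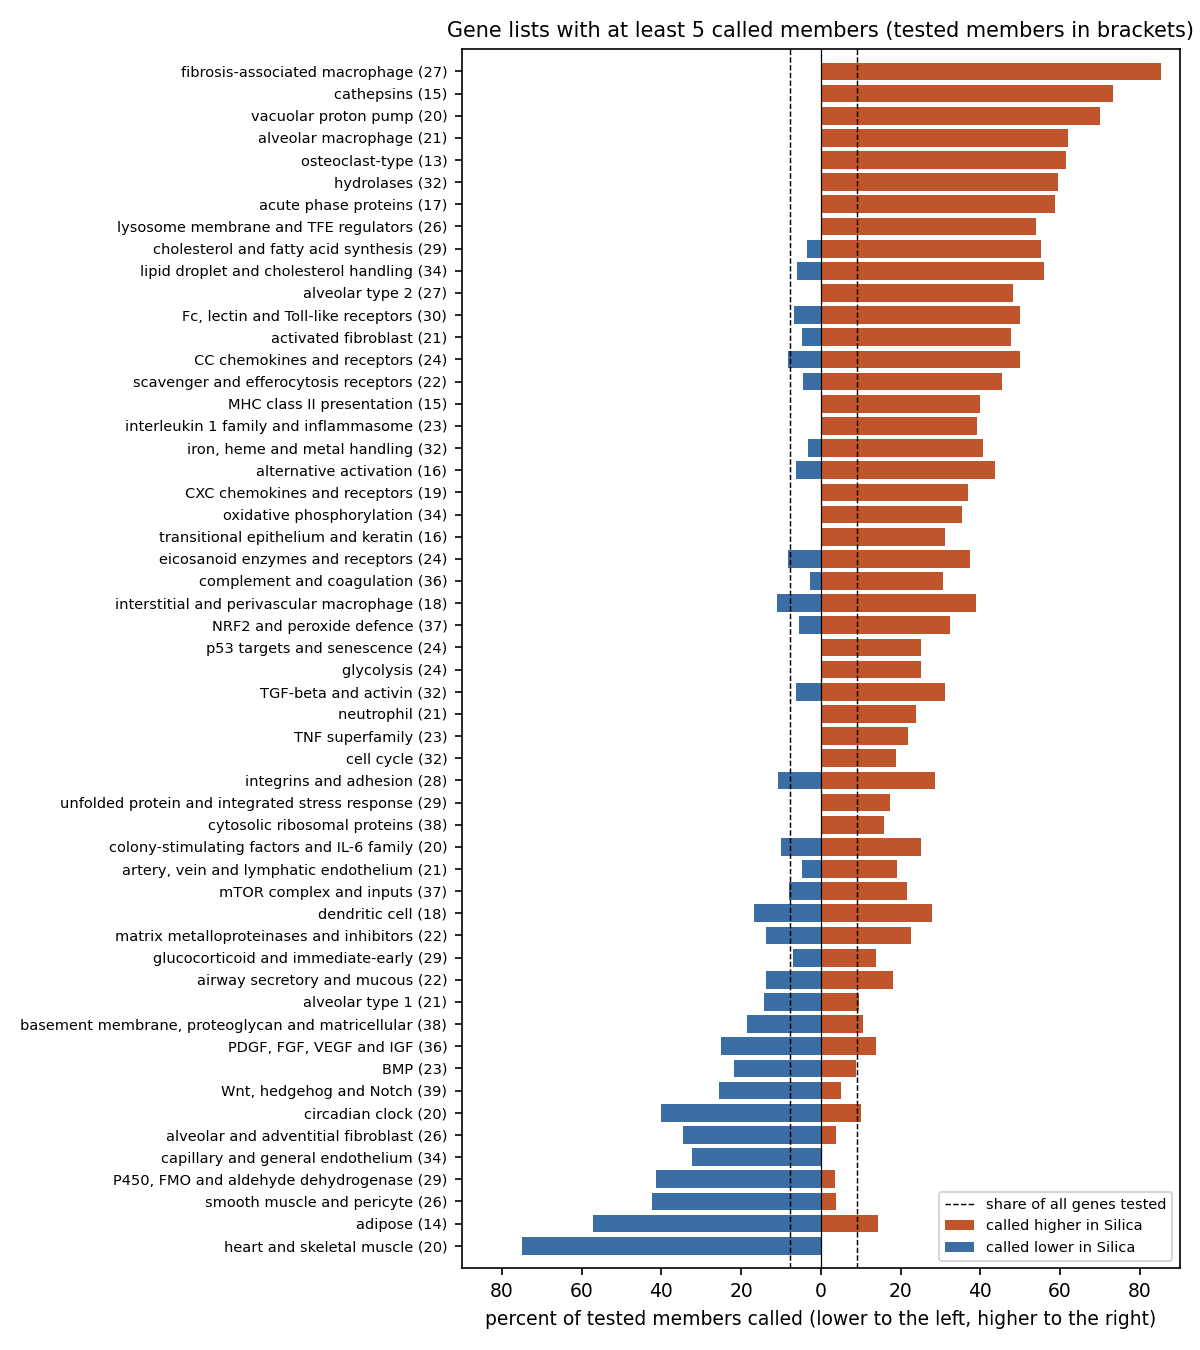
Percent of tested members called higher (orange, to the right) or lower (blue, to the left) for each gene list with at least 5 called members, tested members in brackets. Dashed lines mark the shares over all genes tested, 9.11% higher and 7.81% lower. Fibrosis-associated macrophage genes, cathepsins and the proton pump lie at the top, and muscle, adipose, contractile and endothelial lists at the bottom.

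Genes with the AP-1 element TGANTCA were looked at because AP-1 sites are known from many macrophage genes. The element, the same letters on both strands, stood in the 250 bases before the start of 4.58% of all tested promoters, of 6.44% of genes called higher and of 4.93% of genes called lower. It stood in 26 of 193 (13.5%) promoters of genes that rose at least 2-fold and kept their call. Examples from members described here are printed with the element in capitals, from the strand of the gene: Ccl9 (chr11:83578643-83578729, minus strand), Cd68 (chr11:69666171-69666359, minus), Il1a (chr2:129309973-129310024, minus), Itgax (chr7:128129454-128129540, plus) and Olr1 (chr6:129507179-129507265, minus), all RefSeq, GRCm38.p6.
Ccl9: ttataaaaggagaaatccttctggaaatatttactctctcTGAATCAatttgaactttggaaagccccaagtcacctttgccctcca
Cd68: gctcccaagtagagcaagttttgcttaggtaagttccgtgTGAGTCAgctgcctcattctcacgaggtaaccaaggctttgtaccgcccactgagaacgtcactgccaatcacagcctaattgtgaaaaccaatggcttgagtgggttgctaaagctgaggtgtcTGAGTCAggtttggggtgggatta
Il1a: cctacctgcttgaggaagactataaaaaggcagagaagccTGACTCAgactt
Itgax: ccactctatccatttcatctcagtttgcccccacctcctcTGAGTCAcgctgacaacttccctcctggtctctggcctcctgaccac
Olr1: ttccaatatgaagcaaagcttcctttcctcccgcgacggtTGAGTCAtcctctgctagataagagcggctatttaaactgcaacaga
Cd68, a lysosomal glycoprotein of macrophages, held 2 copies and went from 11.9, 10.6 and 12.2 to 67.3, 31.1 and 52.3 FPKM (2.23 ± 0.25). The antioxidant response element core TGACNNNGC, read on both strands, stood in 12.2% of all promoters. It stood in 7 of 31 (22.6%) of the list of NRF2 targets and in 2 of 10 of those called higher. The lysosome lists came close to this, with 14 of 75 (18.7%). The CArG box, known from contractile genes, stood in 1.22% of all promoters and in 2.19% of genes called lower. Of the smooth muscle and pericyte list itself 1 of 20 tested promoters held a CArG box, and 0 of the 9 called lower did. Of the 193 promoters of genes that rose at least 2-fold and kept their call, 7.77% held the E-box, beside 8.17% over all. The antioxidant response element core stood in 14% of these 193 promoters and the CArG box in 1.55%.

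Of 17 T cell genes, 3 rose and none fell (median 0.72), beside 9.11% higher over all genes, and none kept its call with each library left out. DESeq2 called 9, a fit of the 6 libraries alone 8, and none were called without Control 1. Il7r, the interleukin-7 receptor, had 4.57, 7.76 and 5.9 FPKM in Control and 18.6, 10.5 and 12.1 in Silica (1.29 ± 0.3), a call lost without Control 1, Control 3 or Silica 1. Cd3e, Cd4 and Foxp3 were below the level filter. Among 14 NK and cytotoxic genes 1 rose, Klrg1, an inhibitory receptor, from 0.743 ± 0.0723 to 2.7 ± 0.627 FPKM (1.96 ± 0.39). None of 21 B and plasma cell genes rose and 1 fell, Mzb1 of plasma cells (-0.81 ± 0.23), a call lost whichever library was left out, while Jchain, the joining chain of secreted antibodies, overlapped between the groups and did not pass. In the dendritic cell list 5 of 18 rose (3 without Control 1, Control 2, Control 3 or Silica 3) and 3 fell, 2 without Silica 2 and 1 without any other library. Itgae, the CD103 chain of airway dendritic cells, rose from 1.18, 1.1 and 1.01 to 1.73, 2.05 and 1.98 FPKM (0.9 ± 0.17). Cd209a, a lectin of monocyte-derived dendritic cells, fell from 9.15, 10.2 and 9.71 to 2.03, 1.01 and 3.16 FPKM (-2.12 ± 0.32), the largest decrease among the genes named by rule. MHC class II presentation gave 6 of 15 higher and none lower (median 0.59), with 3 without Control 3. Cd86, a costimulatory ligand, rose from 2.83, 2.77 and 3.34 to 7.2, 5.82 and 5.85 FPKM (1.18 ± 0.18).

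Alveolar type 2 cells, which make surfactant, gave 13 of 27 genes higher and none lower (median 0.52). The count was 6, 6, 7 and 8 without Control 2, Control 3, Silica 1 and Silica 3, and 8 by limma on FPKM with a pseudocount of 0.1. The genes that rose include Chil1 and Lyz2, and macrophages also express Lyz2. Sftpd, surfactant protein D, went from 508, 395 and 450 to 951, 817 and 857 FPKM (1.06 ± 0.19). S100g, a calcium-binding protein, went from 253, 217 and 194 to 490, 351 and 374 FPKM (0.98 ± 0.19), and Lpcat1, which makes surfactant phospholipid, from 51.8 ± 2.57 to 73.2 ± 10.1 (0.6 ± 0.12). Sftpc, a defining marker, did not pass and overlapped between the groups, at 27488, 19802 and 23043 against 27627, 24818 and 30186 FPKM. Of 21 alveolar type 1 genes, 2 rose and 3 fell (median -0.16), and none kept its call. Cav1, of the caveolae shared with endothelium, fell from 586, 572 and 664 to 310, 403 and 377 FPKM (-0.64 ± 0.14), a call lost without Control 3 or Silica 1. Pdpn, podoplanin, rose from 73.7, 63.4 and 81.4 to 140, 93.1 and 108 (0.75 ± 0.16), a call lost without Control 2, and Ager did not pass at 578 ± 17.5 against 720 ± 210. Transitional epithelium and keratin genes gave 5 of 16 higher, 2 without Control 2, Control 3 or Silica 1 and 9 without Silica 2. Itgb6, the integrin chain that activates latent TGF-beta, rose from 11.3 ± 2 to 17.6 ± 0.866 FPKM, a call lost without the same 3 libraries, whereas Krt8, a keratin of transitional cells, did not pass at 68.6 ± 3.61 against 78.8 ± 21.7. Airway secretory genes gave 4 of 22 higher and 3 lower (median -0.15), and 1 and 2 of these kept their call. Ciliated genes gave 1 of 23 higher and none lower (median 0.04). Over all genes 9.11% were called higher and 7.81% lower. Without Control 1, Control 2, Silica 1 or Silica 3 the secretory genes higher were 1, and the ciliated call held only without Silica 2. Ces1f, a carboxylesterase, fell from 6.34, 6.81 and 7.06 to 1.35, 2.48 and 3.56 FPKM (-1.36 ± 0.28), and Scgb1a1 was at 34593 FPKM in Silica 1, below the 71946 to 80317 of the other libraries.

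Iron and heme genes gave 13 of 32 higher and 1 lower (median 0.43), 8 of them without Silica 1. Hmox1, heme oxygenase 1, which frees iron from heme, went from 8.97, 8.86 and 9.83 to 29.5, 15.7 and 21.6 FPKM (1.38 ± 0.2). Among 37 genes of NRF2, the oxidant-sensing transcription factor, and of peroxide defence 12 rose and 2 fell (median 0.27). The higher count was 7, 6 and 5 without Control 1, 2 and 3 and 5 without Silica 1. Slc7a11, the cystine importer, went from 0.25, 0.78 and 0.23 to 5.37, 2.78 and 4.42 FPKM (3.43 ± 0.5), and Prdx1, a peroxidase, from 278, 265 and 257 to 881, 407 and 634 (1.38 ± 0.25). Gsta3, a glutathione transferase of the airway, fell from 99, 90 and 101 to 51.3, 68.5 and 58.2 FPKM (-0.61 ± 0.12). Cytochrome P450, flavin monooxygenase and aldehyde dehydrogenase genes, which modify foreign compounds, gave 12 of 29 lower and 1 higher (median -0.5), with 7 lower without Control 1, 3 without Control 3 and 6 without Silica 1. Fmo2, the main lung flavin monooxygenase, fell from 222, 231 and 262 to 107, 145 and 122 FPKM (-0.84 ± 0.16). Cyp7b1, which hydroxylates oxysterols, was the member that rose, from 2.47, 2.36 and 1.88 to 11.2, 4.56 and 6.1 FPKM (1.82 ± 0.34).

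Counts of energy and growth genes changed with the library left out, as the count over all genes did. Oxidative phosphorylation gave 12 of 34 higher and none lower (median 0.39), but 3, 1 and 2 without Control 1, 2 and 3, 4, 22 and 5 without Silica 1, 2 and 3, and 5 with library totals. Cytosolic ribosomal proteins gave 6 of 38 higher, 0 without any one Control library or Silica 1, 1 without Silica 3 and 13 without Silica 2. The list's count thus depended on which library was left out. Glycolysis gave 6 of 24 higher (2 without Control 1, Control 3 or Silica 1, 3 without Control 2 or Silica 3, and 10 without Silica 2), with Aldoc, an aldolase, rising from 1.28 ± 0.215 to 3.62 ± 1.6 FPKM (1.61 ± 0.31). The cell cycle list gave 6 of 32 higher, 1 without Control 2, Silica 1 or Silica 3, 2 without Control 1, 4 without Control 3 and 9 without Silica 2. Rrm2, a subunit of ribonucleotide reductase, kept its call (1.12 ± 0.22), whereas Mki67 and Top2a did not pass at 2.68 ± 0.74 against 3.52 ± 0.0611 and 2.47 ± 0.663 against 2.25 ± 0.187 FPKM. Gdf15, a stress-induced hormone, went from 0.33, 0.03 and 0.03 to 2.54, 0.77 and 1.94 FPKM (3.79 ± 0.71), while Cdkn1a, the cell cycle inhibitor p21, did not pass. Clock genes gave 8 of 20 lower and 2 higher (median -0.31), 4 lower without any one Control library and 2 without Silica 1. Ciart, a repressor of the clock, fell from 12.8, 17.6 and 14.9 to 5.62, 7.5 and 7.98 FPKM (-1 ± 0.15), and Cry2, another repressor, from 15.2 ± 0.791 to 8.19 ± 1.62 (-0.79 ± 0.15). Bhlhe41 rose from 2.74, 2.63 and 2.98 to 11, 5.31 and 9.58 FPKM (1.74 ± 0.24). The labels give no hour of collection.

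Part of the endothelial genes fell. Of 34 capillary and general endothelium genes, 11 were called lower and none higher, with a median of -0.47. The count was 6, 8 and 3 without Control 1, 2 and 3, and 3, 16 and 4 without Silica 1, 2 and 3. DESeq2 called 18 and library totals gave 20. Tie1, an endothelial receptor kinase, fell from 25.7, 24.9 and 29 to 10.7, 17.5 and 14.5 FPKM (-0.8 ± 0.15), and Ramp2, a partner of the adrenomedullin receptor, from 31.1, 33 and 31.7 to 17.1, 19.5 and 19.2 (-0.68 ± 0.11). Pecam1 had no overlap between groups, as 28.9% of all genes tested on the lower side, but did not pass, at 49.1 ± 6.06 against 33.3 ± 5.51 FPKM. Artery, vein and lymphatic genes gave 4 of 21 higher and 1 lower, and none of these kept its call.

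**Figure D4:**
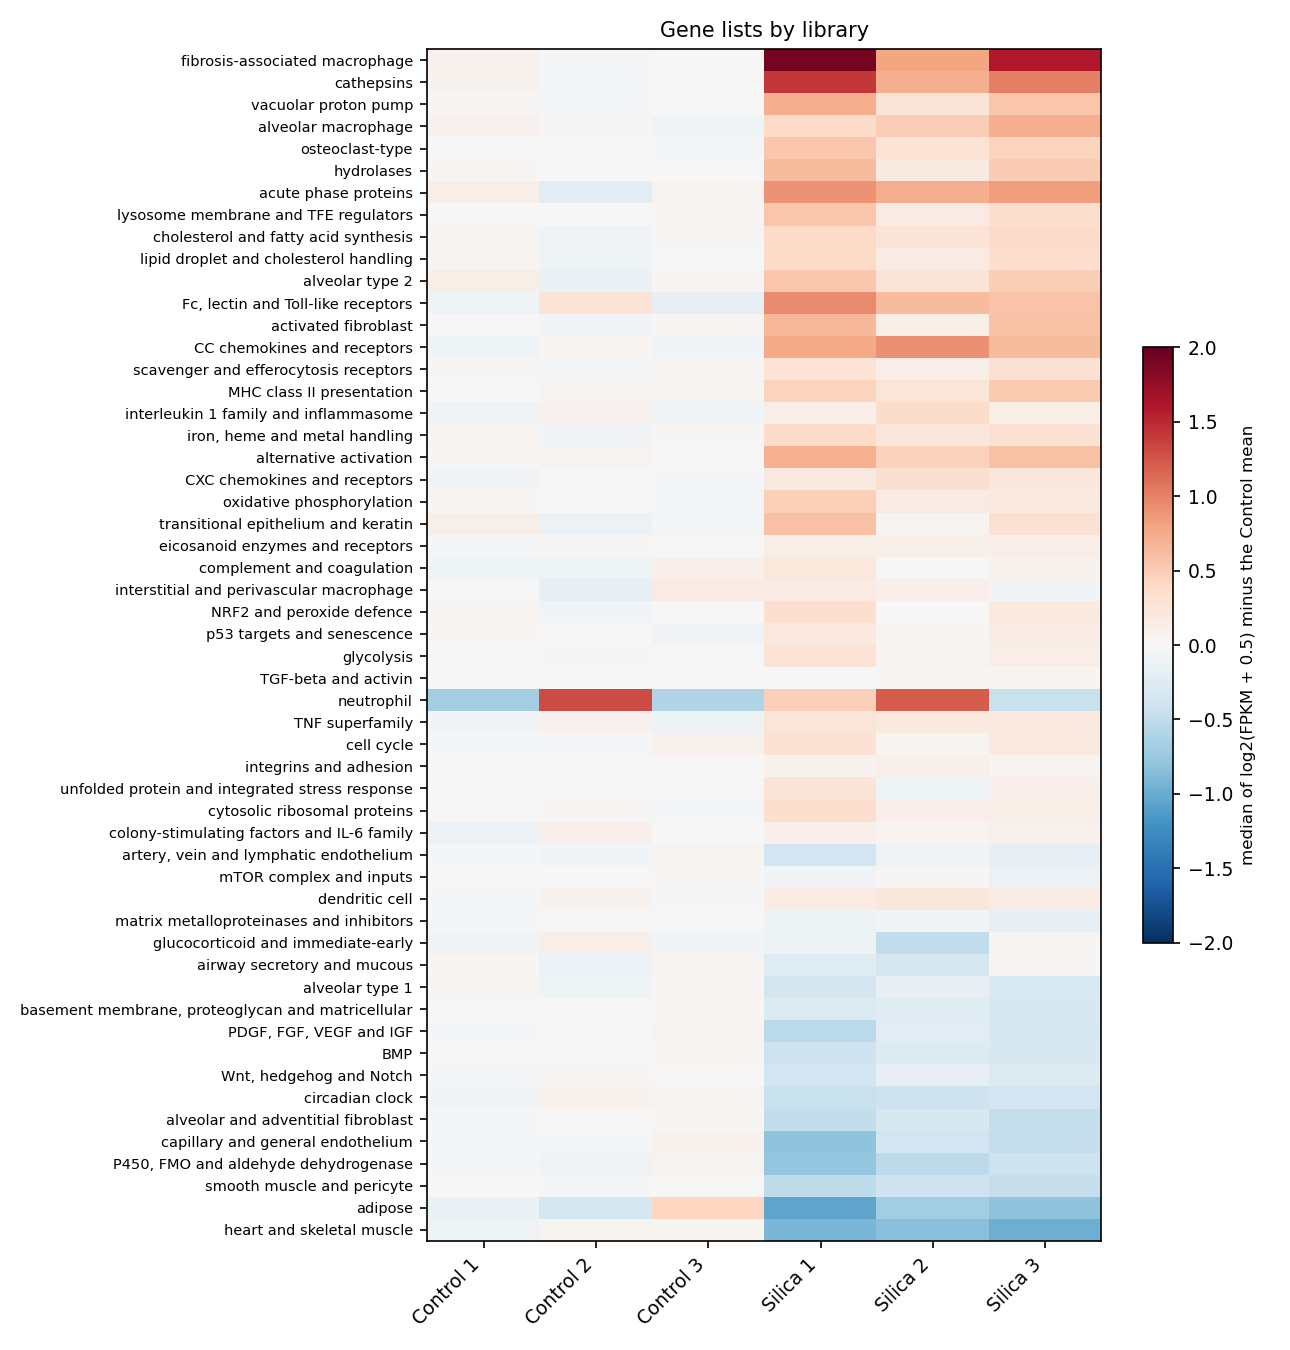
Median over each list's tested members of log2(FPKM + 0.5) minus the Control mean, for each of the 6 libraries (columns), on a colour scale from -2 (blue) to 2 (red). The fibrosis-associated macrophage and cathepsin rows are darkest in Silica 1 and, among the Silica libraries, palest in Silica 2, and the neutrophil row is high in Control 2 and Silica 2.

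Contractile genes of smooth muscle and pericytes gave 11 of 26 lower and 1 higher (median -0.39), with 7 lower without Silica 1 and 8 or 9 without any other library. Tagln, also called transgelin, which binds actin, fell from 40.2, 35.3 and 37.4 to 15.7, 22.4 and 19 FPKM (-0.89 ± 0.15), Cnn1, calponin, from 11.4, 8.22 and 9.81 to 3.91, 5.74 and 5.07 (-0.91 ± 0.17), and Myh11, smooth muscle myosin, from 7.3 ± 0.131 to 4.05 ± 0.822 (-0.75 ± 0.15). Acta2, the actin used to mark myofibroblasts, fell from 24.3, 21.6 and 21.5 to 14.6, 16.3 and 17.1 FPKM (-0.39 ± 0.12, edgeR adjusted p = 0.046), and this call was lost whichever of the 6 libraries was left out. Sncg, gamma-synuclein, was the member that rose (1.52 ± 0.28). Alveolar and adventitial fibroblast genes gave 9 of 26 lower and 1 higher (median -0.37). The lower count was 3, 3 and 1 without Control 1, 2 and 3, and 2, 11 and 1 without Silica 1, 2 and 3. Slc7a10, an amino acid transporter, fell from 16.4, 19.3 and 17.3 to 5.39, 10.9 and 6.74 FPKM (-1.11 ± 0.21).

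Activated fibroblast genes gave 10 of 21 higher and 1 lower (median 0.52), with 5 higher without Control 2 and 6 without Silica 1. Those that rose include Spp1, Lcn2 and Saa3, which macrophages and epithelium also express. Inhba, the activin A subunit, went from 0.8, 0.74 and 0.85 to 13.1, 5.31 and 9.02 FPKM (3.63 ± 0.38). Ltbp2, a matrix protein of elastic fibres, went from 4.53, 4.23 and 4.61 to 12.6, 6.52 and 9.62 FPKM (1.21 ± 0.22). Postn and Cthrc1, defining genes of collagen-making myofibroblasts, did not pass, at 41.1 ± 3.5 against 31.6 ± 3.25 and 2.77 ± 0.258 against 2.8 ± 0.166 FPKM.

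Of 22 collagens 1 rose and 3 fell (median -0.21), a share of calls near the 16.9% over all genes, and none of the 4 kept its call. Col1a1 had 7.95, 5.47 and 5.95 FPKM in Control and 5.06, 5.7 and 4.77 in Silica (-0.22 ± 0.2, edgeR adjusted p = 0.45). Col1a2 had 16.6, 15.9 and 14.9 against 31.2, 17.7 and 24.7 FPKM (0.74 ± 0.25, edgeR adjusted p = 0.06), and Col3a1 37.5, 31.5 and 35.4 against 81.7, 48 and 50 (0.89 ± 0.35, edgeR adjusted p = 0.092). Col1a2 and Col3a1 had no overlap between groups, as 14.4% of all genes tested on the higher side. Neither passed, and both were highest in Silica 1. Fn1, fibronectin, rose from 14.9, 16.6 and 17.9 to 39.4, 19.5 and 24.8 FPKM (0.87 ± 0.22), a call lost without Silica 1 or any one Control library. Elastic fibre and collagen processing genes gave 1 of 28 higher and 3 lower, beside 9.11% higher and 7.81% lower over all genes. The counts were 3 higher and 5 lower without Silica 2, and 8 lower with library totals. Ltbp4, which holds latent TGF-beta in the matrix, fell from 16.1, 17 and 17.2 to 6.22, 9.39 and 8.19 FPKM (-0.98 ± 0.17). Basement membrane and matricellular genes gave 4 of 38 higher and 7 lower, beside the same shares over all genes. The higher count was 1 without Silica 1 or any one Control library, 2 without Silica 3 and 7 without Silica 2, and the lower count was 3 without Control 3 or Silica 3 and 4 without Silica 1. Tnxb, tenascin X, fell from 5.98, 7.09 and 8.69 to 1.53, 2.19 and 2.28 FPKM (-1.76 ± 0.16, edgeR adjusted p = 0.00011), and Thbs3, a thrombospondin, by 0.89 on the log2 scale. Matrix metalloproteinases and inhibitors gave 5 of 22 higher, 3 without any library but Silica 2, and 3 lower, none of which kept its call. Beside Mmp12, Mmp19 went from 3.91, 3.16 and 4.19 to 22.6, 7.74 and 12.5 FPKM (2.04 ± 0.34) and Mmp14, a membrane-bound collagenase, from 3.95 ± 0.415 to 7.25 ± 1.56 (0.98 ± 0.19).

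TGF-beta and activin genes gave 10 of 32 higher and 2 lower (median 0.09), the lower count being 5 without Silica 2 and the higher count 6 without Control 2 or Silica 1 and 5 without Control 3. Tgfb1 rose from 3.08, 2.55 and 2.31 to 4.18, 3.74 and 3.63 FPKM (0.64 ± 0.15), a call lost without Control 2, Control 3 or Silica 1. Tgfbi, a matrix protein that TGF-beta induces, rose by 0.83 ± 0.12, and Tgfbr3, the coreceptor betaglycan, fell from 14.6, 15.9 and 15.3 to 7.6, 8.23 and 9.27 FPKM (-0.77 ± 0.15). BMP genes gave 5 of 23 lower and 2 higher (median -0.23). The lower count was 3, 3 and 2 without Control 1, 2 and 3, 2 without Silica 1, 1 without Silica 3 and 9 with library totals. Wnt, hedgehog and Notch genes gave 10 of 39 lower and 2 higher (median -0.18), with 4, 3 and 3 lower without Control 1, 2 and 3, 2 without Silica 1 and 5 without Silica 3. Neither higher call was made without Control 2 or Silica 1. Id2, an inhibitor of differentiation downstream of BMP, rose from 32.5 ± 1.39 to 63 ± 3.49 FPKM (1.06 ± 0.15), while Notch4, an endothelial receptor, fell from 8.69 ± 0.911 to 4.38 ± 0.898 (-0.9 ± 0.15). PDGF, FGF, VEGF and IGF genes gave 9 of 36 lower and 5 higher (median -0.34), with 5 lower without Control 3 or Silica 3 and 4 without Silica 1. The higher count was 1 without Control 2 or Control 3 and 3 without Control 1, Silica 1 or Silica 3. Fgfr1 and Fgfr3, receptors for fibroblast growth factors, fell by 0.77 and 0.84 on the log2 scale. Igf1, a growth factor that macrophages release, rose from 3.57, 3.46 and 3.81 to 11, 6.34 and 8.38 FPKM (1.35 ± 0.23).

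The study's title names EGF receptor and mTOR signalling and autophagy. Egfr did not pass, at 2.7, 2.54 and 2.94 FPKM in Control and 2.15, 1.93 and 1.68 in Silica (-0.41 ± 0.19, edgeR adjusted p = 0.16). Its groups did not overlap, as for 28.9% of all genes tested on the lower side, in FPKM without TMM scaling. Mtor had 2.58, 2.57 and 2.64 against 1.92, 2.58 and 2.27 FPKM (-0.1 ± 0.13), and Sqstm1, the autophagy receptor p62, 58.1, 55.3 and 51.6 against 91.5, 56.4 and 70.1 (0.51 ± 0.18, edgeR adjusted p = 0.074). The list of the EGF receptor family and its ligands gave 2 of 12 genes higher and none lower (median -0.16), beside 9.11% higher over all genes. The higher count was 1 to 3 with 1 library left out, and 1 gene kept its call. Adam17, the protease that frees EGF receptor ligands, rose from 9.07, 8.96 and 9.58 to 12.2, 11.8 and 13 FPKM (0.52 ± 0.1). Of 37 genes of the mTOR complex and its inputs 8 rose and 3 fell (median 0.01), none of the 3 keeping its call, with 4 higher without Control 1 or Silica 1, 3 without Control 3 and 5 without Control 2 or Silica 3. Of 49 autophagy genes 2 rose, Gabarap and Atg5, and 1 fell, Ulk1 (median 0.02), while DESeq2 called 7 higher. None of the 3 kept its call with each library left out. Beside the mTOR and autophagy counts, the shares over all genes were 9.11% higher and 7.81% lower.

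Markers of other tissues were looked at next. Of 20 heart and skeletal muscle genes 15 fell and none rose (median -0.96), 8 of them keeping the call, and the 15 became 9 without Control 3 and 8 without Silica 1 or Silica 3. The summed FPKM of the whole list, members below the level filter included, was 226 to 269 in Control and 115 to 140 in Silica. No tested member was at 0 in any library. Myh6, the heavy chain of atrial myosin, went from 6.53, 6.37 and 8.01 to 1.36, 3.13 and 1.65 FPKM (-1.68 ± 0.34), Myl3, a cardiac light chain, from 1.4, 1.59 and 3.05 to 0.62, 0.32 and 0.55 (-1.9 ± 0.39), and Actc1, cardiac actin, from 23.8, 25.7 and 21.1 to 8.42, 10.2 and 9.21 (-1.25 ± 0.23). Mouse pulmonary veins carry a sleeve of heart muscle, so dissection and tissue content cannot be told apart in these values. Of 14 adipose genes 8 fell and 2 rose (median -1.07), with 1 higher whichever library was left out. The lower count was 3 without Control 3, 1 without Silica 1 and 2 without Silica 3, and 4 with the replicate block, and Adipoq, the hormone adiponectin, fell from 4.5, 2.8 and 20.8 to 2.04, 2.67 and 1.63 FPKM, with Control 3 far above the others. Summed adipose FPKM was 118 to 298 in Control and 142 to 243 in Silica, and includes Lpl, which rose. The part of these tissues in other decreases was not tested. None of 14 red cell and platelet genes was called.

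**Figure D5:**
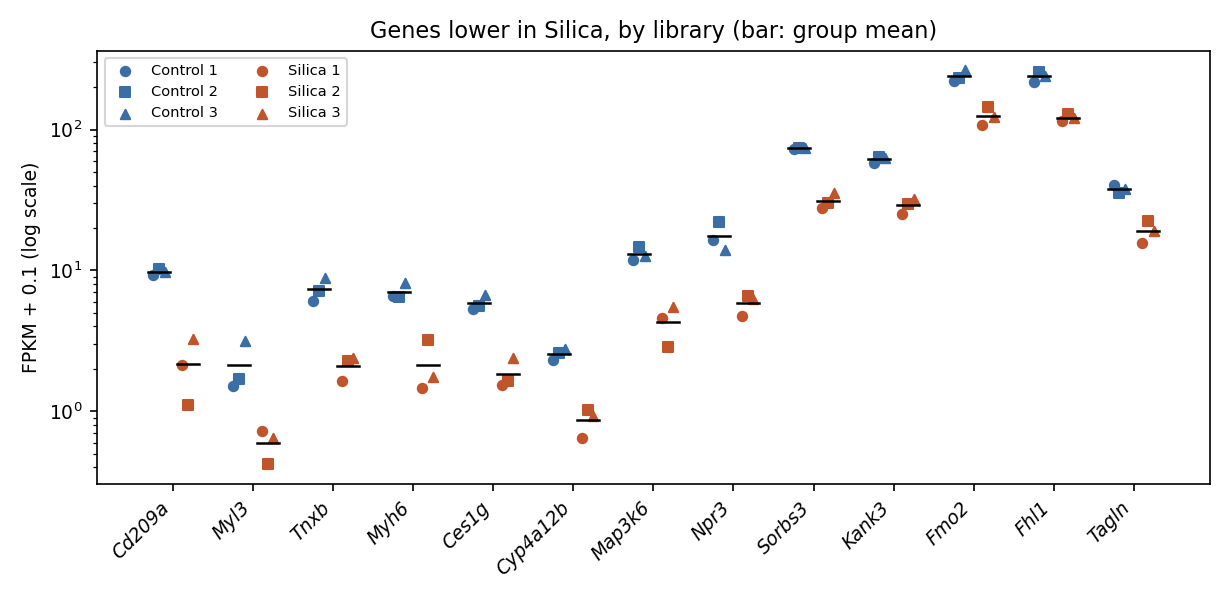
FPKM + 0.1 (log scale) of 13 genes that fell after silica, with 1 point per library (marker shape gives the replicate) and a bar at each group mean. All Silica points lie below all Control points, a condition of choice for the genes picked by fold change. For Cd209a the 3 Control points lie together while the Silica points spread.

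Beyond muscle and matrix, the largest decreases included enzymes and signalling genes. Ces1g and Cyp4a12b, a carboxylesterase and a fatty acid hydroxylase, fell from 5.75 ± 0.765 to 1.75 ± 0.459 FPKM (-1.61 ± 0.23) and from 2.45 ± 0.224 to 0.763 ± 0.191 (-1.59 ± 0.31). Npr3, the clearance receptor of natriuretic peptides, went from 16.3, 22.1 and 13.8 to 4.61, 6.44 and 6.14 FPKM (-1.5 ± 0.27), and Map3k6, a stress kinase, from 11.8, 14.5 and 12.6 to 4.47, 2.76 and 5.38 (-1.52 ± 0.28). Gpr17, an orphan receptor, fell by 1.74 and H3c4, a histone H3 gene with near-identical copies, by 1.47 on the log2 scale. Among genes that kept their call, the largest losses in mean FPKM included Fmo2 and Fhl1, a muscle LIM protein. Fhl1 went from 219, 257 and 239 to 115, 128 and 120 FPKM (-0.87 ± 0.11). Fendrr, a long noncoding RNA of lung mesenchyme and endothelium, went from 112, 126 and 105 to 34.4, 69.3 and 51.5 FPKM (-1.05 ± 0.2). Sorbs3, vinexin of focal adhesions, went from 72.3, 74.4 and 73.8 to 27.5, 30.1 and 35.2 FPKM (-1.15 ± 0.16), and Kank3, of the endothelial cytoskeleton, from 57.8, 63.9 and 62.3 to 25.1, 29.7 and 32.1 (-0.99 ± 0.11). Mat2a, which makes the methyl donor S-adenosylmethionine, went from 140, 161 and 140 to 87.8, 87.5 and 88.7 FPKM (-0.64 ± 0.1). In each of these genes every Silica library lay below every Control library. That was a condition of choice for the genes picked by fold change, and it held for 28.9% of all genes tested.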

How the data were processed

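Per the labels' protocols, oligo(dT) beads selected the lung RNA and no strand-marking step is named. Whether the counting separated a gene from its antisense partner was not tested. The submitters' processing notes name build mm10 and the tools HISAT2 2.0.1, HTSeq 0.6.1 and cutadapt 1.9.1. The deposited table gives read counts per gene, not normalized, and FPKM that the authors computed. Recomputing FPKM from the counts, lengths and column totals gave 100% of deposited values within 0.006. Positions in the table were not used.

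EdgeR 4.0.16 (R 4.3.3) tested the deposited counts with TMM factors, a trended dispersion and the quasi-likelihood test, in 1 fit of 3 group means over 9 libraries (6 residual degrees of freedom), and a gene was called where its p, adjusted by Benjamini-Hochberg, was under 0.05. The standard error is the log2 fold change over the square root of F. FPKM carry no TMM scaling, so their ratio can differ from the fold change. Alternatives used DESeq2 1.42.0, limma 3.58.1, other scalings and filters, a replicate block and each library left out. Scripts were tested on simulated counts.

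The members and the 70 gene lists (1667 genes, 1429 tested) were chosen with earlier results of these data known, and lists are described by counts and medians only. Named genes are the 10 largest increases and decreases by fold and by FPKM that kept their call. Those by fold also needed groups with no overlap in FPKM and a mean of at least 2 FPKM in the higher group. Gm, Rik, Mir, Snor and immunoglobulin segment names were left out of both. Each list with at least 3 called members adds up to 3 leading called members and 1 in the other direction. Last come 9 genes of fibrosis and the study's title. Members that were not called are named to describe a list. Trem2, Mitf, Clec7a, Msr1, Plin2, Abcg1, Soat1, Dhcr7, Scd1, Psap, Fnip2, Ccl2, Ccl7, Ccl20, Cxcl5, Casp1, Aim2, Oas1a, Il17rc, Orm1, Clec5a, Clec4n, Tlr5, Plau, Klrg1, Mzb1, S100g, Lpcat1, Itgb6, Prdx1, Myh11, Tgfbr3, Adam17, Actc1 and Adipoq are called members outside this rule, chosen after their values were seen. Promoters are RefSeq's, GRCm38.p6, the first start listed per gene.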

Additional observations from a re-analysis of the deposited data

How the results depend on the processing

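The number of genes called was 2615, with 1408 higher and 1207 lower. It stayed within 1.5 times of these under DESeq2, DESeq2-type size factors, no FPKM filter, a filter on the 6 libraries and a fit of the 6 alone, except as follows. Limma-voom with array weights called 5703 genes, 2793 higher and 2910 lower. Limma on log2(FPKM + 0.5) and log2(FPKM + 0.1) called 820 and 810 higher, and library totals called 2021 lower. The share of higher calls was 33% with library totals, and 33.6% and 34.1% with limma, beside 53.8%, and the median of all genes was then -0.112 with library totals and -0.101 with limma on FPKM. Leaving out each replicate gave 862 to 3944 calls, 528 to 2063 higher and 293 to 1881 lower. The calls of 684 genes held in all 6 of these fits. With the replicate number as a block (replicate block), 2120 genes were called, 2037 of them shared with the main calls. Same-numbered Control and Silica libraries had correlations of deviations of 0.09, 0.12 and 0.09, each the highest of its library with the other group, as a hint from the data. Those with the ATL-III libraries ran from -0.13 to -0.01. Not every Control and Silica pair was over 0.1, and no label ties the numbers to a shared animal, litter or day, so the numbers were not treated as pairing the samples. None of the 212 named genes changed direction under any alternative run. Of these, 206 were called and 148 kept their call, mostly by the rule that chose them, so this stability follows in part from the choice. DESeq2 lost the call of 1, the replicate block of 11 and limma on log2(FPKM + 0.5) of 20. With 1 library left out the calls lost ran from 5 (Silica 2) to 45 (Silica 1). A Control level of 0 counts allows up to 3 counts over the group, which sets the bounds given for Npy and Awat1.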
